A study of Capsicum annuum with 5 samples.

Results

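The subject is the miRNA profile of the mature leaf of pepper (Capsicum annuum, inbred line Zunla 1), set against root, stem, open flower and fruit of the same line. Small RNA of each tissue was sequenced as 1 library, so the leaf is 1 of 5 libraries and no value has a replicate. All 314 deposited mature lines (155 from 5p arms, the others from 3p arms) were used, and each distinct sequence was counted once within its family. This gave 245 sequences in 64 families, 35 with established miRNA numbers and 29 pepper candidates named miRC. Leaf, root (developing roots) and stem (developing stem) came from plants in full bloom kept in soil at 22 °C with 16 h of light, and no treatment or genetic change is named for any tissue. For flower and fruit no temperature is recorded, and the fruit stage is given as mature green in 1 label and as turning red 30 days after pollination in the series text. The extraction text names root samples for every library. The file lists miRNAs alone, so the tissue label could not be checked against marker genes. Tissue and library cannot be told apart, and intervals below cover counting error only.

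The listed tags, with each sequence once, summed to 542531 in leaf, 231560 in root, 318815 in stem, 678695 in flower and 311417 in fruit, or 1540487 in the 4 other tissues pooled. These sums count annotated miRNAs and are not library depth. Values are given as normalised tags, meaning tags per 1000000 listed tags of the library. A family counted as higher or lower in leaf when its log2(normalised tags + 1) differed from that of the pooled others by at least 1. Families were compared if their 5 libraries together held at least 10 tags, which left out miR536, miRC1, miRC6, miRC9, miRC14, miRC15 and miRC20.

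Plant miRNAs are cut by DICER-LIKE1 from a hairpin as a duplex of a 5p and a 3p strand. The strand kept by ARGONAUTE1 directs cleavage or repression of its targets and is called the guide, while the other, the passenger or star strand, is usually degraded. In leaves the conserved families act on leaf polarity, growth, hormone response and the passage to flowering, and the copper families miR397, miR398 and miR408 repress copper proteins when copper is scarce. miRNAs of 22 nt such as miR482 act on NLR disease resistance genes and start the formation of secondary small RNAs.

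The 10 sequences with most leaf tags show what the leaf profile is made of. They are written 5′ to 3′ with T for U as deposited, and capitals mark the seed, bases 2 to 8.
miR166a-3p (the same sequence stands on hairpins miR166b to miR166g): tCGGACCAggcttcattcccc
miR5301-5p: tGTGGGTGgggtggaaagatt
miR168a-5p: tCGCTTGGtgcaggtcgggac
miR166h-3p (also miR166i-3p): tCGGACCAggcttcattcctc
miR408-5p: aCAGGGACgaggcagcgcatg
miR156a-5p (also miR156b-5p and miR156c-5p): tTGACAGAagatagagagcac
miR4376-5p: aCGCAGGAgagatgatgctgga
miR167a-5p (also miR167b-5p, miR167c-5p and miR167d-5p): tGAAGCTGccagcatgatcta
miR398c-5p: gGGGCAATctgagatcacatg
miR166a-5p (also miR166c-5p): gGAATGTTgtctggctcgagg

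Of these 10, miR166a-3p and miR166h-3p share a seed, and the 10 together made up 88.2% of the leaf tags. miR408-5p, miR398c-5p and miR166a-5p are passenger strands of their hairpins. miR166a-3p held 17.5% of the leaf tags and 28.6% of the tags of the other tissues. miR5301-5p was the second, with 15.9% in leaf and 1.68% in the others. The guides miR168a-5p (13.5% and 14.5%), miR166h-3p (11.4% and 16.0%), miR156a-5p (7.37% and 16.4%) and miR167a-5p (3.11% and 5.60%) each held a smaller share in leaf than in the others. miR408-5p held 8.86% and 0.239%, and miR4376-5p 5.12% and 2.43%. Leaf was the least concentrated of the 5 libraries. Its profile was as even as that of 9.38 equally abundant sequences (inverse Simpson index), against 6.99 in root, 6.10 in stem, 4.63 in flower and 4.43 in fruit.

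Leaf had more of the copper families, of miR5301, miR393 and miR1446 than the pooled others. Of the 57 families compared, 13 were higher in leaf (22.8%) and 23 were lower (40.4%), and 11 of the lower ones were listed at 0 in leaf. The median family differed by -0.49 on the log2 scale. Leaf had the highest value of the 5 libraries in 12 families (21.1%), and in miR393, miR408, miR1446, miR5301 and the candidate miRC22 (5 families, 8.77%) it was at least 2-fold above the next tissue. miRC22 and miRC25 reached 10 tags only through leaf, which fixed their place among the higher families. Over the 55 families with 10 or more tags in the other tissues, 11 were higher and 23 lower (41.8%), 10 were highest in leaf and 4 led by 2-fold. The 11 families listed at 0 in leaf passed either filter only through the other tissues, which fixed their place among the lower ones. miR1507 and miR477, with 7 and 5 leaf tags, also passed only through the other tissues. The balance of higher and lower families thus depends on the filter, and the choice of scaling moved it too. Median-of-ratios size factors over 31 families shifted the median family by a further -0.62 log2 units and gave 10 families higher and 31 lower, while counts summed over hairpins gave 16 and 16. Families that no longer passed 2-fold once 1 of the other tissues was left out are named with the processing alternatives.

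**Figure D1:**
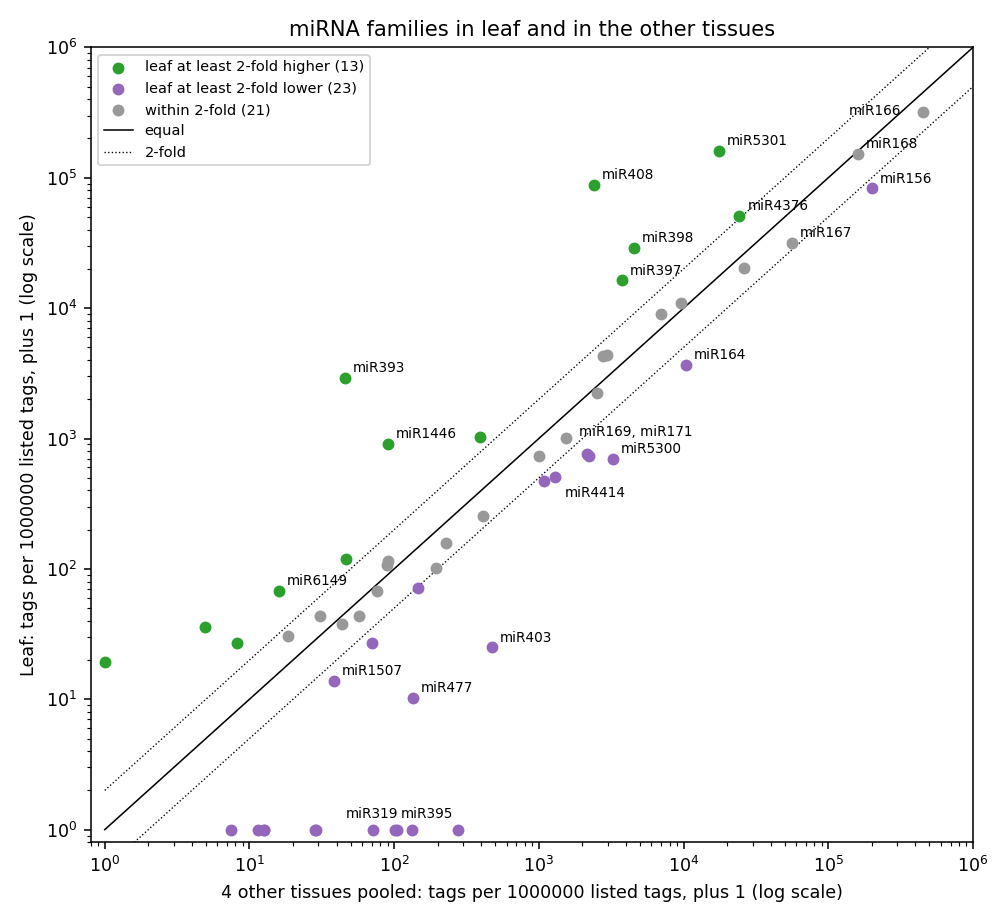
Each point is 1 of the 57 miRNA families with 10 or more tags, with its normalised tags (plus 1, log scale) in the 4 other tissues pooled on the x axis and in leaf on the y axis. The 13 families above the upper dotted 2-fold line include miR408, miR5301, miR393, miR398 and miR397, and the 11 points along the bottom are families listed at 0 in leaf; unlabelled points past 2-fold are candidates named miRC.

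All 3 listed copper families were higher in leaf and highest there, beside 22.8% higher and 21.1% highest in leaf over all families. Their median log2 difference was 2.66 against -0.49 over all families. A list of 3, chosen with earlier results of these data known, is too small to set against these shares. The copper families took 13.4% of the leaf tags, 3.43% in stem, 1.26% in root, 0.484% in fruit and 0.173% in flower. miR408, a repressor of copper proteins such as plantacyanin, had 48090 tags in leaf, 3277 in stem, 265 in fruit, 139 in flower and 11 in root. Leaf stood above every other library, 37.0-fold over the pooled others (95% counting interval 35.8 to 38.3) and 8.62-fold over stem. Stem held most of the other miR408 tags, and the log2 difference of 5.21 was 8.02 without stem and 4.43 without flower. miR398, a repressor of copper/zinc superoxide dismutase, had 28944 normalised tags in leaf, 16649 in stem, 3032 in root, 2681 in fruit and 290 in flower, with leaf 6.33-fold over the pooled others (6.16 to 6.51). miR397, which represses laccases, had 16312 normalised tags in leaf, 9509 in root, 7371 in stem, 1307 in fruit and 1235 in flower, with leaf 4.33-fold over the pooled others (4.19 to 4.48). Leaf and stem lay closest in miR398 and leaf and root in miR397, with leads of 1.74-fold and 1.71-fold. Without stem the log2 difference of miR398 was 4.35 in place of 2.66, and without flower it was 1.86, while that of miR397 lay between 1.503 without flower and 2.57 without root in place of 2.12.

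The strands of the copper hairpins differed in how far leaf stood apart. Both strands of each are shown because the leaf values rest mostly on the passenger strands of miR408 and miR398.
miR408-5p, passenger: aCAGGGACgaggcagcgcatg
miR408-3p, guide: tGCACAGCctcttccctggct
miR398c-5p, passenger: gGGGCAATctgagatcacatg
miR398c-3p, guide: tGTGTTCTcaggtcgcccctg
miR397a-5p, guide: tCATTGAGtgcagcgttgatg
miR397a-3p, passenger: tCTACGCTgcactcaatcatg

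The miR408 hairpin lies on chromosome 8 from 134522181 to 134522265, miR398c on chromosome 12 from 1699966 to 1700072 and miR397a on chromosome 7 from 217000382 to 217000475, all on the minus strand of a build not named in the sources used here. miR408-5p alone had 48088 leaf tags, and miR408-3p had 2 in leaf and 9 in the others together. Among the guide strands, miR397a-5p was 3.25-fold over the others (3.13 to 3.36), with 6607 tags in leaf. miR398c-3p had 354 tags in leaf and 707 in the others, a log2 difference of 0.51. This guide was highest in stem, with 1261 normalised tags against 652.5 in leaf. The passenger miR398c-5p had 15338 tags in leaf, 4891 in stem, 664 in fruit, 620 in root and 133 in flower. With guide arms alone the copper list took 2.18% of the leaf guide tags, 1.14% in stem, 1.12% in root, 0.198% in fruit and 0.139% in flower. miR397a-3p was at least 2118.2-fold higher in leaf, counted against a floor of 3 tags over the 4 other libraries together. It made up 25.3% of the miR397a tags in leaf, with 2238 tags, and 0 of 5779 in the other tissues, which allows a share of up to 0.0519%.

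Of the other nutrient families, miR399, which acts on the phosphate regulator PHO2, had 156.7 normalised tags in leaf and 228 in the pooled others and stayed within 2-fold. miR395, which represses sulfate assimilation genes, was listed at 0 in leaf, root, stem and fruit and had 234 normalised tags in flower.

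Of the Solanaceae families, miR5301 and miR4376 were higher in leaf, miR5300 was lower and miR5303 was within 2-fold. miR5301 had 159545 normalised tags in leaf, 57933 in stem, 16851 in root, 5589 in flower and 2961 in fruit. Leaf stood above each other library, 9.07-fold over the pooled others (8.95 to 9.20) and 2.75-fold over stem. The log2 difference of 3.18 was 4.50 without stem and 2.56 without flower. miR4376, which in tomato acts on an autoinhibited calcium ATPase, had 93873 normalised tags in stem and 51282 in leaf, then 23337 in root, 5510 in fruit and 672 in flower. Leaf was thus second, and its 2.11-fold excess over the pool (2.07 to 2.14) was 1.37-fold with median-of-ratios scaling. miR5303, with 16 leaf tags, had 29.5 normalised tags in leaf and 28.2 in stem.

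miR5301 and miR482 are set side by side because their strands resemble each other.
miR5301-5p: tGTGGGTGgggtggaaagatt
miR482b-5p: cGTGAGTGgtgtggtaagata
miR5301-3p: tCTTTCCTactcctcccatacc
miR482b-3p: tCTTGCCTacaccgcccatgcc

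Without gaps, 18 of the 22 bases of miR5301-3p matched miR482b-3p, and 16 of the 21 bases of miR5301-5p matched miR482b-5p. The miR5301 hairpin lies on chromosome 4 from 54567237 to 54567345 and miR482b on chromosome 6 from 58555754 to 58555958, both on the plus strand. In both hairpins the 5p strand was higher in leaf and the 3p strand was lower. miR5301-5p had 86337 tags in leaf, 18054 in stem, 3481 in flower, 3459 in root and 826 in fruit, whereas miR5301-3p had 221, 416, 312, 443 and 96 in the same order. In normalised tags miR5301-5p was 9.49-fold over the pooled others (9.36 to 9.63) and miR5301-3p stood at 0.495 of them (0.427 to 0.572). miR482b-5p had 1798 tags in leaf, 208 in stem, 82 in root, 23 in fruit and 0 in flower, 16.3-fold over the pooled others (14.5 to 18.5). miR482b-3p had 145 tags in leaf and 1436 in the others together, 0.287 of the pooled others (0.240 to 0.340).

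Among the 3 listed families that act on NLR genes, miR5300 and miR1507 were lower in leaf and miR482 was within 2-fold, a number too small to set against the 40.4% lower over all families. miR5300 had its lowest value in leaf, 697 normalised tags against 1369 in flower, 1400 in fruit, 3632 in stem and 10783 in root, and the pooled others stood 4.68-fold over leaf (4.21 to 5.21). miR1507 had 7 tags in leaf and 58 in the others. miR482 as a family had 4256 normalised tags in leaf and 2763 in the others. Its 2 most abundant guides, miR482a-3p and miR482b-3p, were both lower in leaf than in the pooled others. miR482a-3p had 115 tags in leaf, 112 in flower, 431 in fruit, 453 in stem and 1061 in root. The listed tags of flower summed higher than those of leaf, so leaf was not the lowest library for this guide. miR482d-3p had 325 tags in flower and 0 in leaf. The guide arm of miR482, the NLR family with an assigned guide, took 0.0825% of all guide tags in leaf, 0.127% in flower, 0.220% in fruit, 0.364% in stem and 0.756% in root.

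Most development families were within 2-fold. Of 14 listed, 1 was higher, 5 were lower and 8 were within 2-fold, with a median log2 difference of -0.72. Over all families 22.8% were higher and 40.4% lower. Only the lower count of the list is near its share, and the higher count is below it. The list took 47.0% of the leaf tags against 59.7% in root, 63.0% in stem, 80.6% in fruit and 82.7% in flower. This gap depended on the strands counted. With guide arms alone the list took 72.1% in leaf, above the 66.5% of root and below the 81.3% of stem, 85.0% of fruit and 84.7% of flower. With sums over hairpins leaf (77.8%) and without miR166 leaf (21.9%) stayed the lowest, next to root (82.6%) and stem (33.0%) in turn. miR156, which represses SPL factors and holds plants in the juvenile phase, had 82749 normalised tags in leaf, between 22192 in fruit and 339814 in flower. The pooled others stood 2.44-fold over leaf (2.41 to 2.46), and without flower among them the log2 difference was -0.17. The 20 nt guide miR156d-5p, shared with miR156e and miR156f, had 747 tags in leaf, 873 in fruit, 5340 in stem, 5610 in flower and 14193 in root, and leaf stood at 0.0815 of the pooled others (0.0757 to 0.0877). Leaf was the lowest of the 5 libraries for miR169 (NF-YA factors), with 761 normalised tags, and for miR171 (GRAS factors), with 735. The pooled others stood 2.81-fold (2.54 to 3.12) and 3.02-fold (2.72 to 3.35) over leaf in these families. miR171 had 6914 normalised tags in root, and without root its log2 difference was -0.91, short of 2-fold, as it was with sums over hairpins (-0.75).

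miR164, which represses NAC factors of organ boundaries and ageing, had 3655 normalised tags in leaf, 2608 in root, 3227 in flower, 7729 in fruit and 34186 in stem. Without stem among the others it was no longer lower, with a log2 difference of -0.22. miR319, which represses TCP factors of leaf growth, was listed at 0 in leaf and had 73 tags in root, 22 in stem, 8 in fruit and 6 in flower. miR166 (class III HD-ZIP factors of leaf polarity) had 321849 normalised tags in leaf, the lowest of the 5 libraries, and the pooled others stood 1.40-fold over it. miR167 and miR160, which act on auxin response factors, were within 2-fold, with log2 differences of -0.83 and -0.45. The remaining development families within 2-fold were miR172 (AP2-like factors, 0.17), miR390 (TAS3, 0.58), miR396 (growth-regulating factors, 0.38), miR159 (MYB factors, -0.61) and miR394 (an F-box gene, -0.92). miR393, the higher member, acts on auxin receptor F-box genes through its 5p guide.

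**Figure D2:**
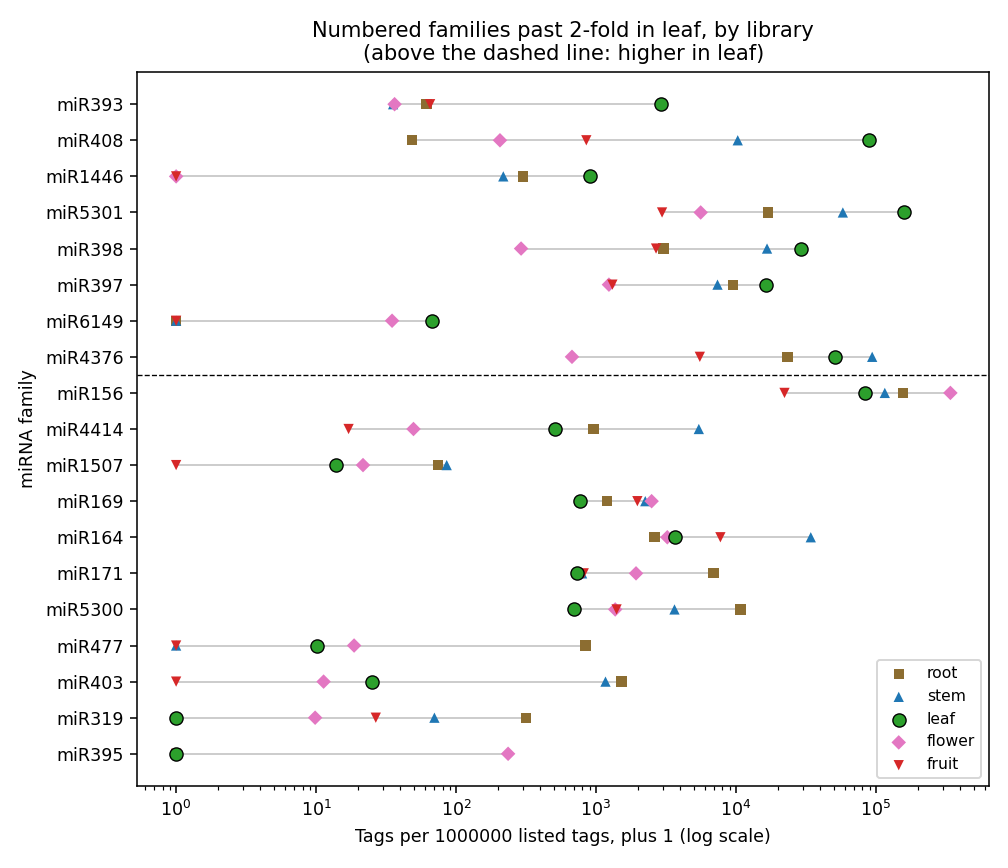
Normalised tags (plus 1, log scale) of the numbered families past 2-fold in leaf, with 1 marker per library and leaf as the outlined green circle. Leaf is the rightmost marker in miR393, miR408, miR1446, miR5301, miR398, miR397 and miR6149, while stem is rightmost in miR4376; markers at 1 are libraries listed at 0, and some of these lie on top of each other.

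Of the families of the small RNA pathway, miR168 (AGO1) and miR162 (DCL1) were within 2-fold, with log2 differences of -0.06 and -0.19, and miR403 (AGO2) was lower. The miR403 guide had 372 tags in stem and 342 in root and was listed at 0 in leaf, flower and fruit. The family as a whole, with 13 passenger tags in leaf, was 19.8-fold higher in the pooled others than in leaf (11.5 to 37.3). Further numbered families outside the lists were uneven as well. miR1446 had 494 tags in leaf, 69 in root, 69 in stem and none listed in flower or fruit, and leaf was 10.2-fold over the pooled others (8.40 to 12.4). Its log2 difference of 3.33 was 4.08 without root, 3.99 without stem and 2.50 without flower. miR6149 had 36 tags in leaf, 23 in flower and none listed elsewhere. miR4414 (274 leaf tags, 1728 in stem) and miR477 (5 leaf tags, 194 in root) were lower. Without stem the miR4414 difference turned to 1.24, and without root the miR477 difference was 0.0068. miR3627 and miR2873 were within 2-fold.

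Passenger strands formed a larger part of the leaf profile than of the other libraries. The guide arm of 23 families was taken from general knowledge of plant miRNAs. Over these families, passenger arms held 22.8% of the tags in leaf (95% Clopper-Pearson interval 22.7 to 22.9), 5.30% in stem, 2.19% in root, 1.84% in fruit and 1.75% in flower. miR408 and miR398 supplied most of the leaf passenger tags, and with miR397 also left out the share was 8.46% in leaf (8.37 to 8.55), 2.19% in stem, 1.91% in root, 1.71% in flower and 1.53% in fruit. Leaf stood above each other library with and without the copper families.

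The difference between strands held for single sequences. Of the sequences with 10 or more tags, 49 were at least 2-fold higher in leaf (30.8%) and 66 lower (41.5%), and of the 143 with 10 or more tags in the other tissues 35 were higher (24.5%) and 66 lower (46.2%). Among passenger sequences 29 of 53 were higher (54.7%) and 15 lower, with a median log2 difference of 1.13. The 29 include miR482c-3p, which is a passenger by its annotated type but would be a guide by its name. Among guide sequences 5 of 50 were higher and 25 lower, with a median of -0.93. As some sequences reach 10 tags through leaf itself, the count was repeated for those with 10 or more tags in the other tissues, where 23 of 46 passenger and 5 of 49 guide sequences were higher. The 5 guides were miR172g-3p, miR390b-5p, miR397a-5p, miR398e-3p and miR164b-5p. Under median-of-ratios scaling the counts were 22 passengers and 3 guides. The repeated filter keeps sequences that passed only through the other tissues, so it does not remove selection on that side. Its lower counts stayed at 15 passengers and 25 guides.

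**Figure D3:**
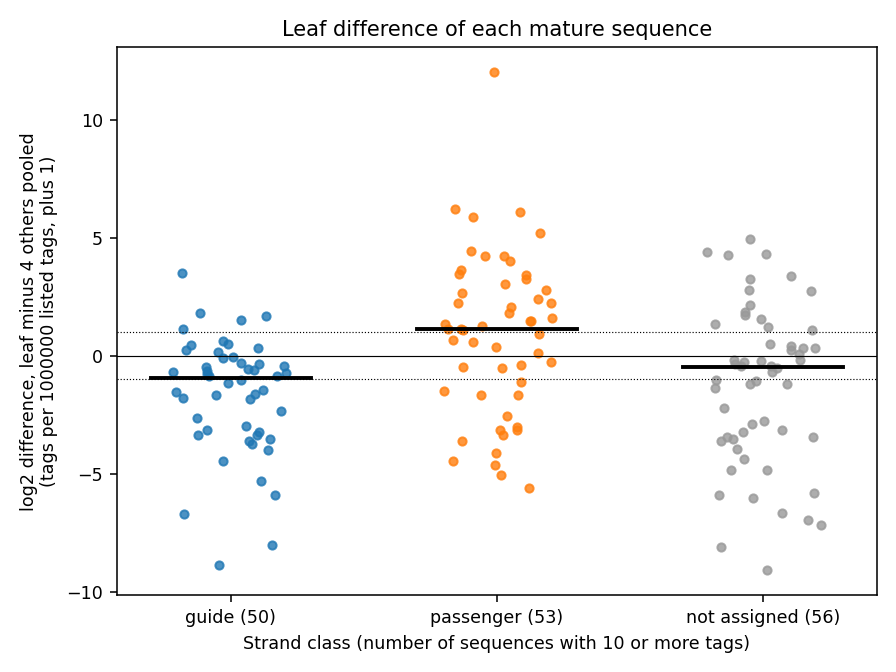
Log2 difference between leaf and the 4 other tissues pooled, on log2(normalised tags + 1), for each sequence with 10 or more tags, grouped by strand. Thick lines are medians, at -0.93 for guides, 1.13 for passengers and -0.49 for sequences of families with no assigned guide; dotted lines mark 2-fold.

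Family by family, 21 of the 23 had at least 10 tags both in leaf and in the others. The passenger share was larger in leaf in 17 of the 21 (81.0%), smaller in miR169, miR171 and miR390 and 0 in both for miR394. In 5 of the 17 (miR160, miR393, miR398, miR399 and miR408), and in miR171, the arm called passenger was the main arm in every library. In the other 15 families the share was larger in leaf in 12. In 16 of the 17 the leaf interval lay above that of the pooled others, the exception being miR399, and in 11 leaf exceeded each other library. Some of these leads were narrow, as in miR160 (99.0% against 97.4% in root) and miR167 (0.921% against 0.766% in stem). No interval was set for the family shares of each other library. In miR171 the leaf share was lower than that of the pooled others with intervals apart. By library it was 75.4% in leaf, below root (91.9%) and flower (84.0%) but above stem (70.75%) and fruit (61.4%). In miR390 the leaf share of 2.14% was below flower (4.17%) but above stem (1.28%), root (0.908%) and fruit (0.763%). The passenger arm was at least 2-fold over the others in normalised tags in 14 families and the guide arm in 1, miR397. The passenger shares compare strands within a library and do not depend on the scaling, whereas the counts of arms past 2-fold do. By hairpin, 49 of 65 had a larger passenger share in leaf and 12 a smaller one, though hairpins of a family share guide tags.

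The families differed in the size of the gap. In miR482 it was 88.6% in leaf (87.2 to 89.8) and at most 19.2% elsewhere, in stem. In miR162 it was 48.3% in leaf (45.4 to 51.2) and between 6.95% in fruit and 24.6% in flower. In miR396 it was 54.5% in leaf (53.1 to 55.9) and between 12.5% in fruit and 37.3% in stem. The guide arms of miR162 stood at 0.545 of the others in normalised tags (0.499 to 0.594), and the passenger arms were 2.48-fold over them (2.22 to 2.78). In miR166 the passenger share was 10.3% in leaf (10.2 to 10.5) and at most 1.91% elsewhere. There the passenger arms were 5.20-fold over the others (5.07 to 5.33) while the guide arms stood at 0.647 of them (0.644 to 0.651). In miR172 leaf had 14.2% (13.3 to 15.1), which was below the 15.3% of flower. miR403 had 13 leaf tags, all from the passenger arm, as were those of flower.

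**Figure D4:**
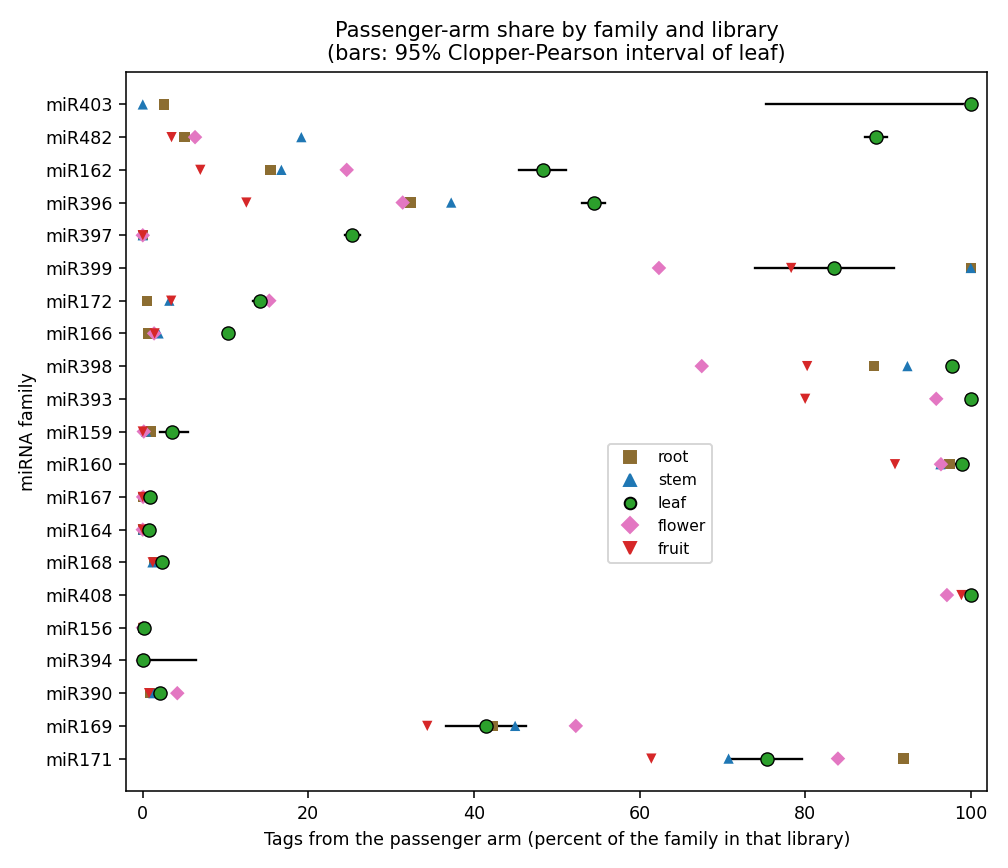
Share of a family's tags that came from its passenger arm, in percent, for the 21 families with an assigned guide and at least 10 tags in leaf and in the others. Each marker is 1 library, leaf is the outlined green circle with its 95% Clopper-Pearson interval, and leaf lies right of all other markers in 11 families such as miR482, miR162 and miR396; overlapping markers hide each other near 0 and 100.

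The leaf value of miR393 came from its passenger strand. Its strands are shown to mark which of them was found.
miR393a-5p, guide: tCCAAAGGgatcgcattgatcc
miR393a-3p, passenger: aTCATGCGatctcttcggaat

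The hairpin lies on the minus strand of chromosome 3 from 56612952 to 56613029. miR393a-3p had 1586 tags in leaf, 23 in flower, 16 in fruit, 14 in root and 11 in stem, 70.4-fold over the pooled others (54.8 to 91.8). The guide had 0 tags in leaf, root and stem, 1 in flower and 4 in fruit. In Arabidopsis the star strand of miR393 is bound by AGO2 and acts on a Golgi SNARE gene in antibacterial defence.

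Across the file 8 of 42 families (19.0%) differed by 25 percentage points or more in arm use between leaf and the others. Besides miR162, miR396, miR397, miR403 and miR482 they were miR1446, miR4414 and miRC7. In miR1446 the 3p arm held 30.4% in the others and 94.7% in leaf. Its 3p strand stands on hairpin miR1446a alone, which was listed at 0 in stem, where all tags of the family were 5p. On miR1446a itself the 3p arm held 72.4% in the others and 94.7% in leaf, a smaller gap. In miR4414 the 5p arm held 43.6% in the others, with 788 tags of miR4414b-5p in stem, and 0% of the 274 leaf tags. In miRC7 the 5p arm held 71.1% of 38 leaf tags and 2.69% in the others.

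In 9 of the 42 families the most abundant sequence was another one in leaf than in the pooled others. In miR390 and miR164 the exchange was between guides of different hairpins, which are shown for that reason.
miR390a-5p: aAGCTCAGgagggatagcgcc
miR390b-5p: aAGCTCAGgagggatagcacc
miR164a-5p: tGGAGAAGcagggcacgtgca
miR164b-5p: tGGAGAAGcagggcgcgtgca

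The miR390 guides differ by G19A (miR390a-5p first, positions from the 5′ end) and share their seed. miR390b-5p had 2032 tags in leaf, 1050 in stem, 264 in fruit, 238 in root and 109 in flower, and made up 85.1% of the leaf family against 36.6% in the others. miR390a-5p had 305 in leaf and 1362 in flower, and made up 12.8% and 61.2%. miR164b-5p was 67.3% of the leaf family and 10.7% of the others, and miR164a-5p 32.0% and 88.9%, with 9705 of its tags in stem. miR164b-5p itself was 2.21-fold over the pooled others (2.05 to 2.37) but was highest in stem, with 3642 normalised tags against 2459 in leaf, while miR164a-5p stood at 0.126 of them (0.116 to 0.136). In miR403, miR482, miR1446 and miRC7 the exchange was between arms. In miR162 the main sequences also came from different arms, but in leaf they were near level (28.55% for the 5p and 27.97% for the 3p sequence). The 3p arm as a whole still held 51.7% of the leaf miR162 tags. In miR171 (miR171j-5p in leaf, miR171c-5p in the others) it was between passenger strands, and in miR5303 between 3p sequences of under 30 tags.

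Within miR172, the hairpin miR172g on chromosome 5 from 216378798 to 216378902 (minus strand) also marked leaf.
miR172g-5p, passenger: gCAGCATTatcaagattcaca
miR172g-3p, guide: aGAATCTTgatgctgctgcat

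miR172g-5p had 780 tags in leaf, 20 in stem, 5 in flower, 3 in fruit and 0 in root, 79.1-fold over the pooled others (54.3 to 119.8). Its guide miR172g-3p had 181, 29, 8, 7 and 0 in the same order, 11.7-fold over them (8.36 to 16.6). The passenger miR172d-5p, on few tags, had 23 in leaf and 2 in the others, 32.65-fold over them (8.07 to 285.7). The main miR172 guide, shared by miR172a to miR172d, had 4803 tags in leaf and 8702 in the others and was 1.57-fold over them. miR172h-3p had 3287 tags in root and 22 in leaf, and miR172e-3p had 40 in leaf and 789 in flower, so the family value near level joined sequences that were higher and lower in leaf.

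The 10 sequences with the largest leaf differences were miR397a-3p, miR172g-5p, miR393a-3p and miR408-5p, described above, with miR482c-3p, miR1446b-3p, miR167a-3p, miRC7-3p.2, miR4376-3p and miRC22-5p. miR1446b-3p had 468 tags in leaf and 42 in root, and miR167a-3p, a passenger, had 155 in leaf and 19 elsewhere. miR4376-3p had 38 in leaf and 4 elsewhere. miR482c-3p, miRC7-3p.2 and miRC22-5p had 31, 11 and 10 tags in leaf and none listed elsewhere. Against an assumed 3 tags over the other libraries together, they were 29.3-fold, 10.4-fold and 9.46-fold higher in leaf. Hairpin totals of 1 to 4 tags were nearly absent from the file, so tags may go unlisted and these folds are not lower bounds. These 3 sequences reached 10 tags only through leaf. The annotation types miR482c-3p as a 5p strand.

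Leaf tags also began with other bases than those of most libraries. In Arabidopsis a first U favours AGO1 and a first A favours AGO2 and AGO4. T, standing for U, began 74.6% of the leaf tags, 81.2% in stem, 90.1% in root, 93.6% in fruit and 96.6% in flower. Without miR166 leaf and stem were level in T, at 67.5% each, and A was lower in leaf (26.1%) than in stem (28.5%). A began 17.7% in leaf and 15.8% in stem, and in leaf miR408-5p and miR4376-5p supplied most of it. G began 6.84% in leaf and at most 2.65% elsewhere, with miR398c-5p and miR166a-5p as the main sequences. Without miR166, G began 5.19% in leaf and at most 3.27% elsewhere, in stem. By length, 94.2% of the leaf tags had 21 nt and 5.32% had 22 nt, the latter below stem (10.2%) and above root (4.39%), fruit (0.945%) and flower (0.385%). Among the 49 sequences higher in leaf, 14 began with T (28.6%) and 17 with G (34.7%), whereas over all sequences compared these shares were 49.1% and 22.6%. With 10 or more tags required in the other tissues, T began 31.4% and G 37.1% of the 35 higher sequences, against 51.7% and 21.7% of all 143. With each sequence counted once whatever its tags, T began 44.8% of the sequences listed in leaf and 44.9% of those in the others.

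Of 23 candidate families compared, 5 were higher in leaf and 12 lower, beside 22.8% and 40.4% over all families. miRC13 had 560 tags in leaf and 605 in flower and none listed elsewhere. miRC4 had 64 in leaf and 30 or fewer in each other library. miRC25 (19 leaf tags), miRC19 (14) and miRC22 (10, the only family compared with tags in leaf alone) rested on few tags. miRC16, the most abundant candidate, was within 2-fold, with 20299 normalised tags in leaf and 26063 in the others, as were miRC3, miRC23, miRC27, miRC28 and miRC29. The candidates listed at 0 in leaf were miRC5, miRC10, miRC11, miRC12, miRC17, miRC18, miRC21, miRC24 and miRC26, of which miRC11 had 427 tags in stem and miRC18 204 in flower. miRC2, miRC7 and miRC8 were lower with 14, 38 and 257 leaf tags.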

How the data were processed

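Per the file headers, the deposited annotation is GFF3 text that names mireap-plant as its software. Its attribute text holds the authors' whole-number tag counts of each mature sequence in each library. No scaling is recorded. Not given in the sources used here were the aligner, trimming, genome build and the rule for tags with several matches. Of 36 sequences on more than 1 hairpin, 18 had differing counts, and the largest was taken (the smallest as an alternative). In a single library, a hairpin summed to 1 to 4 tags in 1 case and to 5 to 8 in 39, so 0 means listed at 0 and fewer than 5 tags may go unlisted. A fold against 0 assumes 3 tags over the 4 libraries. It is a bound only where the hairpin had tags in each of them, as miR397a did.

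Families follow the number in the parent's name, and arms follow the annotation's type (miR482c has names and types exchanged). Counts of the 4 other tissues were pooled. The pseudocount was 1, and 95% fold intervals treat the leaf count as an exact binomial part of all tags. Shares have Clopper-Pearson intervals, and a count of 0 allows up to 3 tags of the total. Sequence tags without molecular identifiers are not independent molecules. No test was run and no p-value is given, with 1 library per tissue. Named families were those of the lists, the largest in leaf, the largest and smallest differences and those at 0 in leaf or elsewhere. Members, lists and guide arms were chosen with earlier results of these data known. The fold calculation was tested on simulated counts. Python 3.11.15, pandas 2.3.3, numpy 2.4.6 and scipy 1.17.1 were used.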

Additional observations from a re-analysis of the deposited data

How the results depend on the processing

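No paired analysis was possible because each tissue has 1 library and no replicate. Of the 13 families higher in leaf, 9 stayed past 2-fold under every alternative that kept them, and 5 of the 23 lower ones did. miR4376 fell below it under 5 alternatives, miRC4 under median-of-ratios and without flower, miRC13 under median-of-ratios and miRC19 without flower. Without stem, miR164, miR4414, miR1507, miRC7, miRC8, miRC10, miRC11, miRC21 and miRC24 no longer passed as lower, without root miR171, miR477, miRC2, miRC8 and miRC26, without flower miR156, miR395, miRC5 and miRC18, and without fruit miRC7 and miRC17. Sums over hairpins ended the lower call of miR156, miR171, miR1507, miR4414, miRC2, miRC7 and miRC8, the mean of the 4 tissues that of miR156, and a pseudocount of 10 that of miRC7 and miRC24. The direction turned for miR4414 without stem (1.24), and for miR477 (0.0068) and miRC2 (0.36) without root. Another 323 single-family values moved beyond their counting interval, or by more than 0.1 where a count of 0 gave none.

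The median family, at -0.49, was -0.012 with sums over hairpins, -1.11 with median-of-ratios, -0.80 with totals without miR166, -0.62 with the mean of the 4 tissues, and -0.17, -0.13 and -0.25 without root, stem and fruit. Families at least 2-fold over the next tissue were 8 with sums over hairpins, guide sequences higher in leaf were 3 with median-of-ratios, and families with a smaller passenger share in leaf were 1 without flower. Leaf shares were, with sums over hairpins, totals without miR166 and guide arms only, 77.8%, 21.9% and 72.1% for development, 5.58%, 19.8% and 2.18% for nutrient and copper and 5.58%, 19.7% and 2.18% for copper alone, 6.64%, 22.9% and 25.6% for the small RNA pathway and 0.207%, 0.732% and 0.0825% for NLR. For lists with no assigned guide arm, where guide arms only could not be run, the first pair of shares was 8.81% and 31.2% for Solanaceae and 0.943% and 3.33% for candidates. The share of 21 nt tags was 81.1% with each sequence counted once and 91.5% without miR166, and that of a first T 44.8% and 67.5%. The causes were not tested. Library depth was not analysed here, and counts near 10 tags have wide intervals.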
